A study of Sus scrofa with 8 samples.

Results

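The loci described here are the lncRNAs (long non-coding RNAs) that lie on assembled pig chromosomes, span at least 20000 bases from start to end and had a mean below 10 CPM over the 4 RNA-seq libraries. CPM are the reads of a locus scaled to a common library total. Of the 4028 lncRNAs listed, 3697 lay on chromosomes, 872 of these had the long span, and 848 of these were below the limit on the mean. The remaining 24 had a mean of 10 CPM or more. The loci were thus chosen by their measured mean over all libraries, and their low level is not a result. The livers came from 4 female pigs (sows) of the Yanan breed, without treatment and without a close blood relationship. Of these, 2 were young (180 days after birth) and 2 old (8 years). The young sows had never given birth and the old sows had done so for many years, so age and earlier births cannot be told apart. Each liver gave 1 rRNA-depleted library from a directional kit, so n was 2 per age and each library was a different animal. Liver tissue was sequenced in bulk, so fewer cells of a type and less RNA per cell cannot be told apart.

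A lncRNA is a transcript without a recognized protein-coding reading frame. Some lncRNAs act where they are transcribed, on chromatin or on neighbouring genes, and others act as RNAs elsewhere in the nucleus or the cytoplasm. Most are present at low levels, and many are limited to few tissues or cell types. The span of a locus is the genomic distance that its exons and introns cover, and it is not the length of the mature RNA. The loci here carry only assembly names (MSTRG).

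The reads counted on listed mRNAs and lncRNAs numbered 51494798 and 52207649 in young replicates 1 and 2, and 28324675 and 31630060 in old replicates 1 and 2. Between 61469 and 116490 of these fell on the 848 loci, which was 0.687 to 1.05% of all lncRNA reads, since MSTRG.126734 alone held 66.6 to 89.5% of lncRNA reads. The 12 of 14 hepatocyte markers that were measured were above 0 in every library and summed to 92339 and 102663 CPM in young livers and 66042 and 71577 CPM in old livers, with 4 of them lower in both old livers. Old replicate 1 stood apart in the 12 of 18 interferon-stimulated genes measured, with a sum of 1686 CPM against 27.8 to 42.6 CPM in the other libraries. The 4 of 6 macrophage markers measured summed to 204 and 226 CPM in young and 290 and 284 CPM in old livers. The 3 of 5 T and NK cell markers measured summed to 4.95 and 6.41 CPM in young and 14.8 and 7.62 CPM in old livers. The 3 of 6 erythroid markers measured summed to 621.5 and 429 CPM in young and 306 and 405 CPM in old livers, and the 1 of 4 endothelial markers measured, PECAM1, had 10.5 and 8.92 CPM in young and 23.8 and 13.8 CPM in old livers. The part of these cell types in the results on lncRNAs was not tested.

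The 848 loci had a median span of 51877 bases, with quartiles at 31068 and 110027 bases. The shortest, MSTRG.144417 on chromosome 6, spanned 20016 bases, and the longest, MSTRG.98699 on chromosome 2, spanned 1196077 bases. Spans over 200000 bases were found for 106 loci, and spans over 500000 bases for 10. Chromosome 1 carried 92 of the loci and chromosome 17 carried 15, and 20 were on the X chromosome. Coordinates are those of Sscrofa10.2. No genome or gene annotation of that build was used here, so neighbouring genes, exons and sequences of the loci are not given.

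More of the loci were detected in each old liver than in either young liver. Of the 848 loci, 489 (57.7%, 95% Wilson interval 54.3 to 60.9%) and 431 (50.8%, 47.5 to 54.2%) were above 0 in young replicates 1 and 2. In old replicates 1 and 2, 729 (86.0%, 83.5 to 88.1%) and 722 (85.1%, 82.6 to 87.4%) were above 0. Over all 4028 lncRNAs the shares were 59.3 and 50.0% in young and 88.1 and 83.5% in old livers, so the long-span loci were close to this background. Every listed lncRNA was above 0 in at least 1 of these libraries, so a locus could enter the list through 1 age alone. The age groups did not overlap, and the old mean was higher by 265.5 loci (two-sided exact permutation test, p = 0.33, the smallest p that 2 against 2 libraries allow). The interval treats the 848 loci as independent draws, which they need not be, and does not cover the spread between animals. PCR reads without molecular identifiers are also not independent molecules. Both old libraries held fewer reads than both young libraries. When the reads of each library were drawn down to the smallest library, an expected 486 and 426 loci remained above 0 in young livers and 720 in old replicate 2.

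Among detected loci, those with few reads were more numerous in old livers. Between 1 and 3 reads were counted at 12 and 16 loci in young livers and at 67 and 47 loci in old livers. Between 4 and 30 reads were counted at 82 and 68 loci in young livers and at 293 and 276 in old livers. In contrast, the loci with more than 30 reads were similar in number in all libraries, 395 and 347 in young and 369 and 399 in old livers. The numbers of loci at 1 CPM or more were 286 and 257 in young and 246 and 243 in old livers, so with this stricter limit the order of the ages turned. Over all 4028 lncRNAs these numbers were 1301 and 1197 in young and 1263 and 1062 in old livers, a lower old mean with overlapping ages. Among detected loci the median was 1.35 and 1.51 CPM in young livers and 0.504 and 0.501 CPM in old livers.

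**Figure D1:**
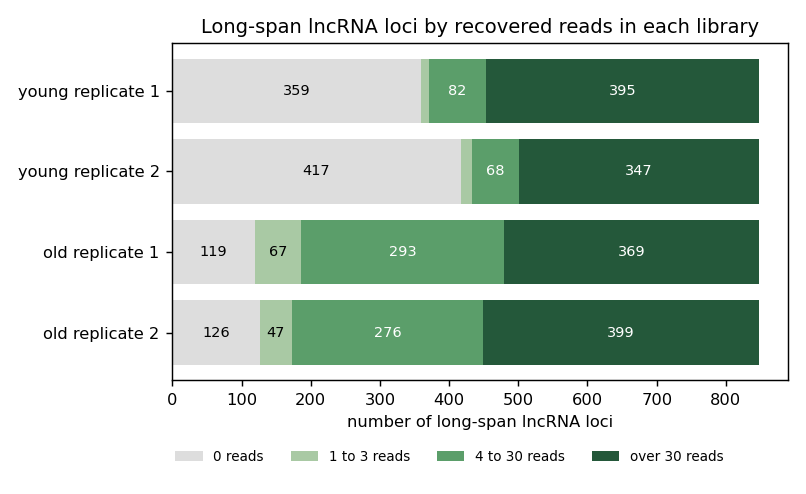
Stacked bars, 1 for each of the 4 libraries, show the number of the 848 long-span lncRNA loci (horizontal axis) with 0, 1 to 3, 4 to 30 and over 30 reads. At 0 reads were 359 and 417 loci in young livers and 119 and 126 in old livers, while loci with over 30 reads numbered 347 to 399 in every library.

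Detection in only 1 age was mostly detection in old livers. Of the 848 loci, 539 were above 0 in both ages, 288 (34.0%) in at least 1 old and no young library, and 21 (2.48%) in at least 1 young and no old library. The same shares over all 4028 lncRNAs were 32.7% and 2.83%, so the long-span loci were close to this background in both directions. The 288 and 21 loci changed with the limit taken as detection, to 253 and 37 with more than 3 reads and to 64 and 119 with at least 1 CPM. Without old replicate 1, 203 were above 0 only in old and 41 only in young livers, and without old replicate 2 there were 211 and 42. Without young replicate 1 there were 408 and 12, and without young replicate 2 there were 347 and 9. The same shares over all lncRNAs without single livers are not given here, so these counts are no result about the long-span loci.

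Of the 288 loci found only in old livers, 126 were above 0 in both old livers, 85 only in old replicate 1 and 77 only in old replicate 2. No old library had more than 3 reads at 41 of them, 109 had more than 3 reads in both old livers, 19 had more than 30 reads in both, and 75 had more than 30 reads in at least 1 old liver. At 28 loci a value of 1 CPM or more was reached in at least 1 old liver, at 5 loci in both, and the highest value was 3.79 CPM, of MSTRG.66697. Of the 21 loci found only in young livers, none was above 0 in both young livers. They were 9 loci of young replicate 1 and 12 of young replicate 2, and 10 of them reached 1 CPM.

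Loci above 0 in only 1 of the 2 replicates were about as many in young as in old livers, but in young livers they more often had many reads. In the young livers 360 loci were above 0 in both, 200 in 1 and 288 in neither. In the old livers these numbers were 624, 203 and 21. A locus at 0 in one young liver but with more than 30 reads in the other was found 130 times (15.3%), of which 83 were at 0 in young replicate 2. In the old livers this was found 32 times (3.77%). Over all lncRNAs the shares were 17.8% in young and 3.67% in old livers. A value of 0 at a locus in a single young library therefore often stood beside a well covered locus in the other.

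In the values as deposited, the summed level of the loci was lower in old livers. The 848 loci summed to 1268 and 1198 CPM in young replicates 1 and 2 and to 999 and 882 CPM in old replicates 1 and 2. The groups did not overlap, and the log2 ratio of the means was -0.39 (exact permutation test, two-sided, p = 0.33, the smallest possible). With TMM scaling of the reads, which aligns libraries on the bulk of their genes, the log2 ratio was -0.16. Scaled to the total of the lncRNAs other than MSTRG.126734, it was -0.48, but the ages then overlapped. Of the reads on these other lncRNAs, the loci held 5.29 and 6.55% in young and 3.15 and 5.34% in old livers. As deposited, the summed level was thus lower while the number of detected loci was higher. Neither difference could reach 0.05 in the exact test with 2 livers per age.

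In single loci, limma on log2(CPM + 1) called none of the 665 loci that were above 0 in at least 2 libraries (adjusted p under 0.05 and an absolute log2 fold change above 1). It called 0.00% of the 3228 lncRNAs tested. The other 183 loci were above 0 in a single library and were not tested. At an unadjusted p under 0.05, limma listed 49 of the loci higher and 43 lower in old livers, and over all lncRNAs tested 7.68% higher and 6.54% lower. On whole reads, the quasi-likelihood test of edgeR called 0 loci, and its unadjusted p was under 0.05 for 130 loci higher and 16 lower in old livers, beside 20.9% and 2.01% of all lncRNAs tested. The exact test of edgeR called 11, of which 10 were higher in old livers beside 2.20% of all lncRNAs tested, and 1 was lower beside 0.155%. DESeq2 called 65, of which 60 were higher beside 9.45% and 5 lower beside 0.774%. The number of calls thus differed between tools. The common dispersion of the reads in edgeR, a measure of the spread between replicates, was 1.38.

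Counting the loci by overlap, 190 (22.4%) had both old values above both young values, 129 (15.2%) had both old values below both young values, and 529 overlapped. Over all 4028 lncRNAs these shares were 24.5% higher and 14.9% lower, so the long-span loci were near the background. Of the 190 higher loci, 126 were those at 0 in both young livers, beside 626 of the 987 higher among all lncRNAs. Over the 848 loci the median log2 fold change was 0.04, the same as over all lncRNAs (0.04). Without young replicate 1, old replicate 1 or old replicate 2, the higher loci numbered 325, 299 or 329. Without young replicate 1 or young replicate 2, the lower loci numbered 251 or 288. Leaving out a library relaxes the rule by construction, and the same shares over all lncRNAs are not given here. These counts are thus no result about the long-span loci.

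**Figure D2:**
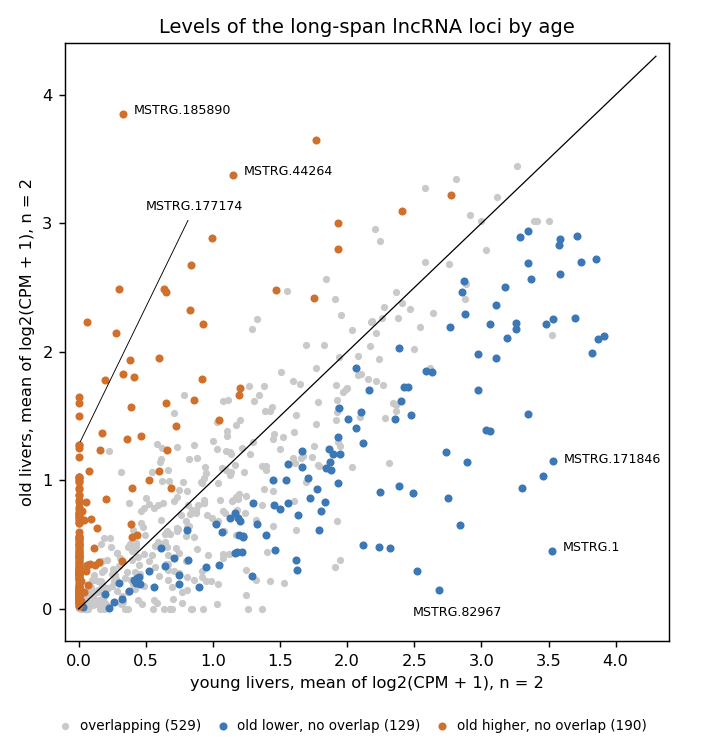
Mean of log2(CPM + 1) over the 2 old livers (vertical axis) against the mean over the 2 young livers (horizontal axis) for each of the 848 loci, with the line of equal level. Loci whose age groups do not overlap are coloured, 190 higher in old livers, many of them at 0 in young livers on the left edge, and 129 lower.

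The direction differed with the level of the locus. Among the 558 loci with a mean below 1 CPM, 156 (28.0%) were higher in both old livers, beside 28.8% of all lncRNAs of that level, and 37 (6.63%) were lower, beside 7.52%. Among the 290 loci with a mean of 1 CPM or more, 34 (11.7%) were higher, beside 14.9%, and 92 (31.7%) were lower, beside 29.3%. The pattern by level was thus shared with all lncRNAs. In the class from 5 to below 10 CPM, which held 58 loci, 32 (55.2%) were lower and 6 (10.3%) higher, with a median log2 fold change of -0.62. Of the 199 lncRNAs of any span or place in that class, 41.2% were lower and 16.6% higher, with a median of -0.40. The 24 long-span lncRNAs above the limit on the mean, which are not among the 848, had 11 lower and 2 higher, with a median of -0.66. Of all 1315 lncRNAs with a mean of 1 CPM or more, 395 were lower and 206 higher. Shares for means of 10 CPM or more alone are not given, so the 24 are not read as a trait of long-span lncRNAs.

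**Figure D3:**
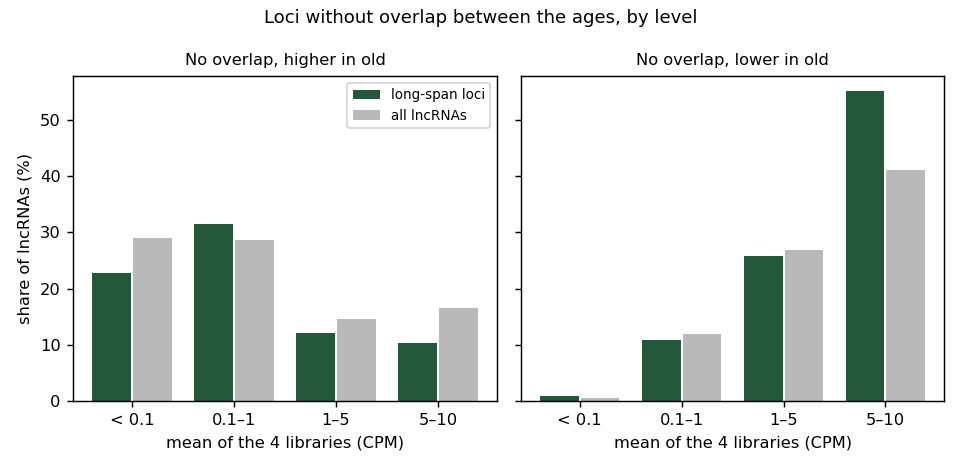
Percent of loci without overlap between the ages (vertical axis) in 4 classes of the mean CPM (horizontal axis), with dark bars for the 848 long-span loci and grey bars for all lncRNAs, higher on the left and lower on the right. The share lower in old livers was 0.862% of long-span loci below 0.1 CPM and 55.2% of those from 5 to below 10 CPM. Over all lncRNAs of these classes it was 0.479% and 41.2%.

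MSTRG.185890 had the largest log2 fold change among the loci that were higher in both old livers. This locus on chromosome 9 (85564822 to 85611631, 46810 bases) had 0.588 and 0 CPM in young livers and 11.7 and 15.4 CPM in old livers, or 54, 0, 719 and 1106 reads. Both old values were far above the young values, which the choice of loci without overlap favours, and the means differed 46.1-fold. The log2(CPM + 1) difference was 3.52 (SE 0.33, limma adjusted p = 0.181), and it stayed between 3.18 and 3.85 when any 1 library was left out. No locus had a smaller adjusted p, and this one did not pass the threshold.

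MSTRG.44264 on chromosome 13 (52310925 to 52484765, 173841 bases) had 0.882 and 1.62 CPM in young livers and 10.3 and 8.52 CPM in old livers, a 7.54-fold difference of the means. Its log2(CPM + 1) difference was 2.23 (SE 0.24, limma adjusted p = 0.196, DESeq2 adjusted p = 0.0213). MSTRG.56533, also on chromosome 13 (198916222 to 198997347), had 1.58 and 0.543 CPM in young and 6.32 and 6.45 CPM in old livers (log2 difference 1.89, SE 0.32, limma adjusted p = 0.228). In both loci the old livers were close to each other. The other 3 loci with the largest differences were uneven between the old livers. MSTRG.149058 on chromosome 6 had 0.523 and 0 CPM in young and 3.15 and 6.63 CPM in old livers. MSTRG.133021 on chromosome 4 had 2.77 and 2.07 CPM in young and 21.6 and 5.93 CPM in old livers. MSTRG.125877 on chromosome 4 had 0.087 and 0 CPM in young and 17.5 and 0.195 CPM in old livers. Its difference rested on old replicate 1, the liver with the high interferon-stimulated genes, as the log2 difference was 2.17 with that library and 0.20 without it (DESeq2 adjusted p with it 0.0258). Without old replicate 1, the log2 difference of MSTRG.133021 was 1.03, against 1.88 with it.

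All 10 loci that the exact test of edgeR called higher were at 0 in both young livers, and 1 of them, MSTRG.177174, is described further on. The limit for a value of 0 was 3 reads, or 0.0327 and 0.0347 CPM in young replicates 1 and 2, and folds are given against the mean of these limits. The limit covers counting alone, as 130 of the 848 loci were at 0 in 1 young liver with more than 30 reads in the other. The folds are thus no lower bounds on the difference between ages. MSTRG.162639 on chromosome 7 (63170954 to 63203949) had 1.74 and 2.35 CPM in old livers, with a mean 60.8 times the young limit (edgeR exact test, adjusted p = 0.0166). MSTRG.481 on chromosome 1 (5643513 to 5772397) had 1.45 and 3.04 CPM, with a mean 66.6 times the young limit (edgeR exact test, adjusted p = 0.0166). MSTRG.93561 on chromosome 18 had 1.32 and 1.53 CPM, and MSTRG.133551 on chromosome 4, which spans 299247 bases, had 1.27 and 1.49 CPM. In each of these 4 loci both old livers were above 1 CPM. MSTRG.8522 on chromosome 1 had 1.30 and 1.23 CPM, MSTRG.43750 on chromosome 13 had 0.747 and 1.36 CPM, MSTRG.85654 on chromosome 16 had 1.06 and 0.933 CPM, and MSTRG.47410 on chromosome 13 had 0.764 and 1.23 CPM. MSTRG.66697 on chromosome 14 was less even, with 3.79 CPM in old replicate 1 and 0.682 CPM in old replicate 2. With limma, the adjusted p of these 9 loci lay between 0.181 and 0.433, and none was called.

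MSTRG.1 and MSTRG.82967 had the largest differences downward. MSTRG.1 lies at the start of chromosome 1 (44 to 63036) and had 10.9 and 10.1 CPM in young livers against 0.861 and 0 CPM in old livers, or 1003, 872, 53 and 0 reads. The ages were far apart, with a log2(CPM + 1) difference of -3.07 (SE 0.38, limma adjusted p = 0.198, edgeR exact test adjusted p = 0.447). MSTRG.82967 on chromosome 16 (44910901 to 44939074) had 7.31 and 3.997 CPM in young livers against 0.146 and 0.070 CPM in old livers. It was 52.3-fold lower in the old mean and was the only locus that the exact test of edgeR called lower (adjusted p = 0.0265, limma adjusted p = 0.198).

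The other loci named for a lower level had no overlap between the ages, as the rule for naming them required. They were not called by limma. MSTRG.70831 on chromosome 15 (23082099 to 23529821, 447723 bases) had 8.30 and 6.24 CPM in young and 1.61 and 1.63 CPM in old livers (log2 difference -1.65, SE 0.18, limma adjusted p = 0.196). MSTRG.50075 on chromosome 13 had 11.4 and 15.3 CPM in young and 3.54 and 2.49 CPM in old livers (log2 difference -1.83, SE 0.25, limma adjusted p = 0.208). In both, replicates differed far less than the ages, which a choice by the smallest limma p favours. MSTRG.6003 on chromosome 1 had 6.63 and 14.8 CPM in young and 1.09 and 1.02 CPM in old livers. MSTRG.186557 on chromosome 9 had 10.1 and 7.69 CPM in young and 1.98 and 0.237 CPM in old livers. MSTRG.146310 on chromosome 6 had 2.15 and 9.45 CPM in young and 0.325 and 0.139 CPM in old livers, with the young livers apart from each other. DESeq2 did call MSTRG.6003 (adjusted p = 0.0289) and MSTRG.146310 (adjusted p = 0.0152).

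**Figure D4:**
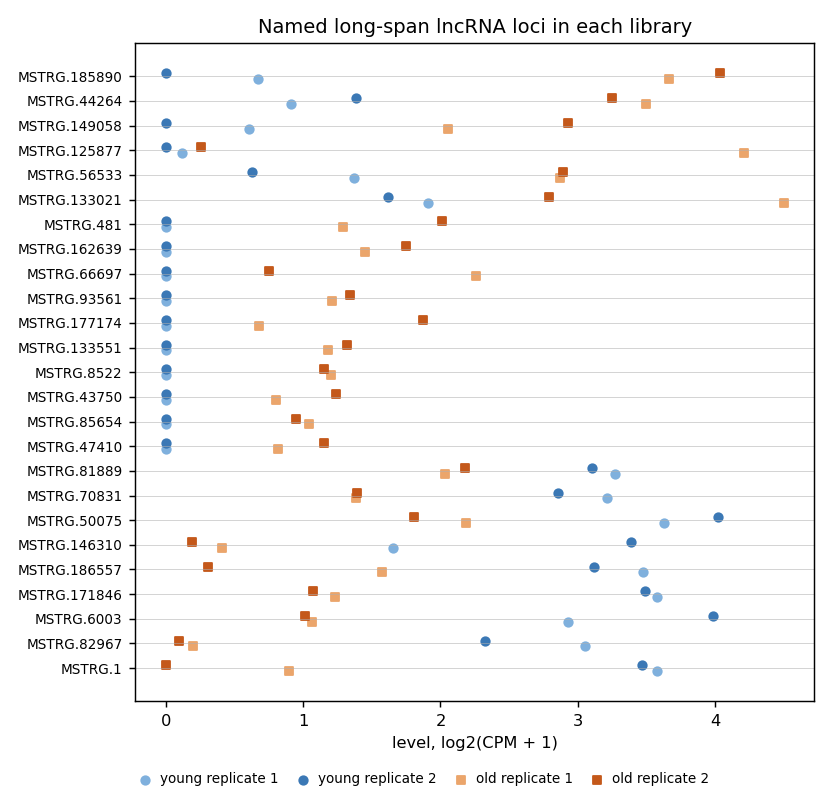
Level as log2(CPM + 1) (horizontal axis) in each of the 4 libraries for the loci named for their difference between the ages and MSTRG.177174 and MSTRG.171846 (1 row per locus). Circles are the 2 young and squares the 2 old livers, and MSTRG.125877 is the locus with the widest gap between the old livers.

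A pair of loci on chromosome 8, MSTRG.177174 and MSTRG.171846, was picked with its values known, so its levels are a description. MSTRG.177174 is among the calls counted above, which is no independent support for it. MSTRG.177174 (128044340 to 128130437, 86098 bases) had 0 CPM in both young livers and 0.601 and 2.66 CPM, or 37 and 191 reads, in old livers. Its old mean was 48.4 times the young limit, which covers counting alone, with a gap between the old livers. MSTRG.171846 (57105633 to 57221728, 116096 bases) had 10.96 and 10.25 CPM in young livers and 1.35 and 1.10 CPM in old livers. It was 8.66-fold lower in the old mean, and the replicates of each age were close to each other.

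Of the 4 loci with the longest spans, the ages were separated in MSTRG.98699 and MSTRG.81889 and overlapped in the others. All 4 had a lower mean in old livers, and for MSTRG.121019 the log2 difference turned from -0.04 to 0.024 with TMM scaling. MSTRG.98699, the longest, had 4.34 and 4.80 CPM in young and 2.21 and 1.53 CPM in old livers. MSTRG.81889 on chromosome 16 (29786677 to 30514788, 728112 bases) had 8.67 and 7.59 CPM in young and 3.09 and 3.52 CPM in old livers (log2 difference -1.08, SE 0.14, limma adjusted p = 0.208). In both, each old value was below each young value. MSTRG.121019 on chromosome 3 (669158 bases) had 0.849 and 0 CPM in young and 0.211 and 0.445 CPM in old livers. MSTRG.95087 on chromosome 18 (667302 bases) had 2.40 and 0 CPM in young and 0.504 and 0.265 CPM in old livers. In the last pair of loci the young livers lay on both sides of the old livers.

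By span, the 4 classes of loci were alike in detection. Of the 235 loci of 100000 bases or more, 60.4 and 53.2% were above 0 in young and 88.5 and 86.0% in old livers. Of the 205 loci below 30000 bases, 56.1 and 49.8% were above 0 in young and 86.3 and 87.8% in old livers. Loci above 0 only in old livers numbered 68, 68, 75 and 77 from the shortest to the longest class. By chromosome, 37.0 to 69.2% of the loci were above 0 in a young liver and 71.1 to 100% in an old liver, so on each chromosome both old livers were above both young livers.

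**Figure D5:**
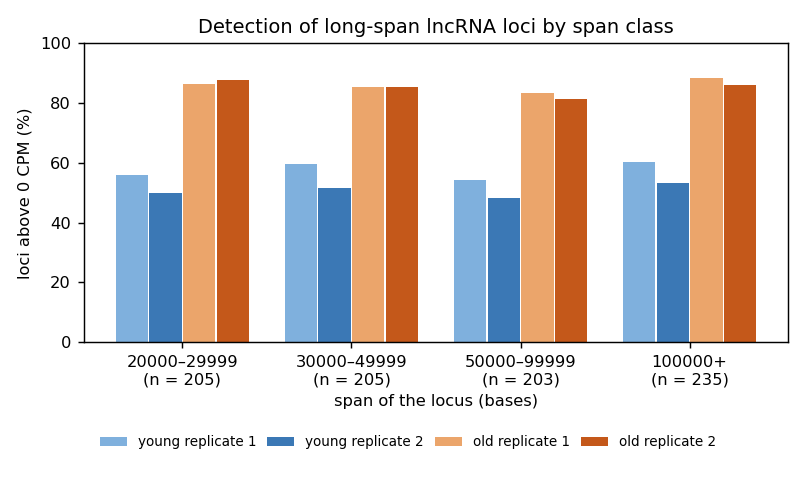
Percent of long-span lncRNA loci above 0 (vertical axis), with 1 bar per library, in 4 classes of span (horizontal axis, bases). In each class the old livers lie between 81.3 and 88.5% and the young livers between 48.3 and 60.4%.

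The same difference in detection was found in lncRNAs of shorter span. Of the 2742 lncRNAs on chromosomes with a span below 20000 bases and the same limit on the mean, 58.5 and 47.9% were above 0 in young and 88.1 and 82.1% in old livers. The ratio of the long-span to the short-span share was 0.986 and 1.06 in young and 0.976 and 1.04 in old livers (two-sided exact permutation test, p = 0.667). The summed level of the long-span loci was 0.386 and 0.410 times that of the short-span lncRNAs in young livers and 0.332 and 0.382 times in old livers (exact permutation test, p = 0.33). Both old ratios lay below both young ratios, and 0.33 is the smallest p possible. Of the 265 lncRNAs on unplaced scaffolds with the same limit on the mean, 53.2 and 44.2% were above 0 in young and 88.3 and 86.0% in old livers.

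Some of the loci overlapped each other. Of the 848 loci, 44 formed 22 overlapping pairs, 17 of them with 1 locus wholly inside the other, and the log2 fold changes had the same sign in 11 pairs. In 4 pairs, 1 locus was higher and the other lower in both old livers. MSTRG.2 lies wholly inside MSTRG.1 over 29243 bases and had 0.697 and 0 CPM in young and 7.41 and 0.738 CPM in old livers, while MSTRG.1 was lower in old livers. On chromosome 6, MSTRG.155943 had 5.06 and 3.66 CPM in young and 8.39 and 6.81 CPM in old livers, and MSTRG.155952, which it overlaps by 44423 bases, had 6.81 and 3.63 CPM in young and 2.41 and 2.83 CPM in old livers. The values of these 2 pairs thus went in opposite directions over shared genomic ground. In 3 pairs both loci were higher. The strand of the loci is not listed and the use of strand in counting is not stated, so the split of reads between overlapping loci is uncertain. In all, 116 of the 848 loci overlapped another listed lncRNA of any span.

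circRNAs, circles formed when an exon end is joined back to an upstream exon start, were measured in the same libraries and were not used to choose the loci. Of the 6366 circRNAs listed, 50 lay with both ends inside 38 (4.48%) of the loci. They were rare, as 41 of the 50 were above 0 in a single library and none in all 4. Their numbers above 0 were 7 and 5 in young and 18 and 32 in old livers, which was 0.519 and 0.60% of the circRNAs of the young and 0.664 and 0.758% of those of the old livers. The number of circRNAs of any place was also higher in old livers, at 2712 and 4219 against 1348 and 834. The share of loci that held a circRNA was 8.51% (20 of 235) at 100000 bases or more and 2.44 to 3.41% in the shorter classes.

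The MSTRG.177174 locus held 1 circRNA, circRNA020480, on the plus strand of chromosome 8 (128064143 to 128066318), with a signal of 0 in both young livers and 1.57 and 3.44 in old livers. The locus and its circRNA were thus both listed at 0 in young livers and both higher in old replicate 2 than in old replicate 1. Such a pattern was common, as 38 of the 50 circRNAs inside the loci were above 0 only in old livers and 8 only in young livers. MSTRG.81889 held 3 circRNAs, whose summed signal was 2.08 and 0 in young and 0.716 and 0.898 in old livers, with no separation of the ages. Of the 38 loci with a circRNA, 8 were higher and 12 lower in both old livers, beside 24.5% higher and 14.9% lower over all lncRNAs. That background depends on level. It was 28.8% higher and 7.52% lower for means below 1 CPM, and 14.9% higher and 29.3% lower from 1 to below 10 CPM. The 38 loci were not split by level, so their counts are not read as a trait of loci with a circRNA.

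The loci nearest to the limits of the rule had low means at the limit on span. MSTRG.144417 (20016 bases) and MSTRG.69189 (20026 bases) were just inside the limit on span, with means of 0.0523 and 1.37 CPM. MSTRG.22504 (19971 bases) and MSTRG.67473 (19968 bases) were just outside, with means of 0.0568 and 1.27 CPM. MSTRG.33478 (9.89 CPM) and MSTRG.105743 (9.86 CPM) were just inside the limit on the mean, and MSTRG.131252 (10.04 CPM) and MSTRG.214719 (10.5 CPM) just outside. MSTRG.33478 had 4.83 and 14.9 CPM in young and 9.49 and 10.4 CPM in old livers, and MSTRG.105743 had 16.3 and 11.1 CPM in young and 8.34 and 3.65 CPM in old livers. The next highest means were those of MSTRG.183564, with 10.04 and 14.6 CPM in young and 5.79 and 7.18 CPM in old livers, and of MSTRG.61389, with 7.49 and 14.2 CPM in young and 4.70 and 10.5 CPM in old livers. Of these 4 loci with the highest means, MSTRG.105743 and MSTRG.183564 had both old values below both young values.

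Values far above the rest in a single liver were found in every library. A value of at least 1 CPM and over 5 times that of every other library was found at 21 and 28 loci in young replicates 1 and 2 and at 13 and 7 loci in old replicates 1 and 2. MSTRG.59225, for example, had 23.8 CPM in young replicate 2 and at most 1.87 CPM in the other livers, and MSTRG.178861 had 27.3 CPM in old replicate 1 and at most 5.12 CPM in the other livers. These 2 loci were chosen after their values were seen.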

How the data were processed

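The authors mapped filtered reads to the Sscrofa10.2 build by TopHat2 (2.0.14), assembled transcripts with StringTie (1.2.3) and estimated levels with Salmon (0.6.0). Their deposited values are named TPM but were whole multiples of 1 step per library (tolerance 0.0006 CPM), so they are taken as CPM of a library total that is not stated, with no correction for transcript length, which also enters the sums, the ranking and the classes of level. Whole reads were recovered for 100% of lncRNA and mRNA values. The deposited circRNA values are a scaled signal from CIRCexplorer2. miRNA values and the authors' comparisons were not used.

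Python 3.11.15 and R 4.3.3 were used. limma 3.58.1 was fitted on log2(CPM + 1), which understates changes of low loci, over the 3228 lncRNAs with 2 or more libraries above 0, adjusted after Benjamini and Hochberg, and tested on simulated data. edgeR 4.0.16 and DESeq2 1.42.0 used whole reads and were alternatives. Replicates were different animals, and replicate pairs differed beyond sampling noise (chi-square per degree of freedom 168 and 416). Named loci were, in each direction, the 6 with the smallest limma p and the 6 with the largest log2 fold change among loci without overlap and with a mean of at least 0.5 CPM, the 4 longest, the 4 with the highest mean, those at the limits of the rule, the calls of edgeR's exact test, and MSTRG.177174 and MSTRG.171846. The loci, lists and tests were chosen with earlier results of these data known. Protein-coding genes at the loci were not analysed here, as the mRNA table has no positions.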

Additional observations from a re-analysis of the deposited data

How the results depend on the processing

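Precision was limited by 2 livers per age and by few reads per locus, with a median of 31 to 131 reads at a detected locus. limma called 0 loci with every pseudocount, scaling, filter and omitted library, while the exact test of edgeR called 11 and DESeq2 called 65. The median log2 fold change was 0.30 with a pseudocount of 0.1, 0.077 with 0.5, and from 0.00 to 0.076 without single livers. Of the 290 loci with a mean of at least 1 CPM, 34 (11.7%) were higher in both old livers, beside 14.9% of all lncRNAs from 1 to below 10 CPM. The number higher was 91 at a span of at least 50000 bases, and from 265 to 329 without single livers. The number lower was 66 at that span and from 171 to 288 without single livers. These omissions were chosen after seeing the data and relax the rule by construction, and the same shares over all lncRNAs are not given. Loci above 0 only in old livers numbered 64 at a limit of 1 CPM, 152 at a span of at least 50000 bases and from 203 to 408 without single livers. Those only in young livers numbered 37 with more than 3 reads, 119 at 1 CPM, 13 at that span and from 9 to 42 without single livers. The difference in loci detected, 265.5, turned to -27 at 1 CPM, and over all lncRNAs it turned from 1254 to -86.5. Drawing down the reads gave 290 and 21.0 loci in only old and only young livers.

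Of 340 values of 34 fitted loci under alternatives, 317 kept their direction and side of the threshold, 11 passed the threshold with the exact test of edgeR and 12 turned direction. DESeq2, not counted in these values, called 16 of the named loci, 5 of which the exact test did not call (MSTRG.6003, MSTRG.146310, MSTRG.171846, MSTRG.44264 and MSTRG.125877). Without single livers, the log2 fold change ranged from -0.995 to 0.018 for MSTRG.61389, from -1.30 to 0.46 for MSTRG.95087, from -0.19 to 0.033 for MSTRG.144417, from -0.54 to 0.90 for MSTRG.33478, from -0.23 to 0.10 for MSTRG.69189 and from -0.48 to 0.40 for MSTRG.121019. Their directions turned without young replicate 1, except for MSTRG.61389, where old replicate 1 turned it, and for MSTRG.121019 both libraries did. MSTRG.69189 also turned, to 0.069 with TMM scaling and to 0.11 with the exact test. MSTRG.121019 turned to 0.42 with a pseudocount of 0.1, to 0.024 with TMM scaling and to 0.018 with the total of the other lncRNAs. The cause was not tested.

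Same-numbered libraries were of unrelated animals, so the main fit did not pair them. Their deviations had a correlation of 0.06 over 3228 lncRNAs. This single value cannot show whether same-numbered libraries were prepared or sequenced together, which is not stated. With a replicate block, limma called 0 loci and the median stayed at 0.04. Its unadjusted p was under 0.05 for 30 higher (4.51%) and 42 lower (6.32%) of the 665 loci tested. Over all lncRNAs tested these shares were 6.04% higher and 5.24% lower.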
